A study of Homo sapiens with 4 samples.

Results

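The established line A549, grown from a human lung adenocarcinoma, was left untreated or given 2 µmol/L sunitinib for 48 h, and gene expression was read on 1 array of each. Genes were chosen as members by signal alone. For each gene the probe set with the highest mean over the study's 4 arrays was taken, and the gene was kept where the untreated or the sunitinib array lay at or above a floor of log2 6.75, the median of all gene probe set values. This kept 10651 of the 18132 genes with a named probe set and left out 7481. Both arrays lay at or above the floor for 10109 of the genes kept, and 1 of the 2 lay under it for 542. At the edge of the rule, the dimmest gene kept reached log2 6.753 on its brighter array and the brightest gene left out reached 6.752. The study held 2 more arrays of the same line at the same time, 1 of cells given 25 µmol/L dihydroberberine and 1 of cells given 25 µmol/L dihydroberberine with 2 µmol/L sunitinib, called the combination here. All 4 cultures were grown in the same serum-containing medium, and no label gives a vehicle for the untreated cells. With 1 array per condition the difference between sunitinib and untreated has no replicate check. No error and no p-value is attached to it, and "higher" and "lower" compare these arrays.

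Sunitinib is a small molecule that occupies the ATP site of certain receptor tyrosine kinases, which include VEGF and PDGF receptors, KIT, FLT3, CSF1R and RET. Such receptors sit in the plasma membrane, pass growth factor signals to the RAS-ERK and PI3K-AKT pathways, and through these set growth, metabolism and secretion. Sunitinib is also a weak base that collects in lysosomes. Cells that sense a shortage of amino acids or other stress phosphorylate the initiation factor eIF2. Translation then slows while that of the factor ATF4 increases, and ATF4 activates genes for amino acid synthesis, amino acid uptake and tRNA charging. Misfolded protein in the endoplasmic reticulum is also answered through ATF6 and XBP1, which activate chaperone genes.

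The labelled line was checked against 11 genes that mark it. On both arrays 9 of the 11 lay at or above the floor, among them KRT8 and KRT18, keratins of simple epithelium, at 13.63 and 14.17 without the drug and at 13.57 and 14.36 with it. The epithelial adhesion genes EPCAM and CDH1 lay under the floor on all 4 arrays. Of the markers of other cell types, CD79A alone of 7 lymphocyte markers with a probe set reached the floor on either array, and PDGFRB alone of 8 fibroblast markers did so. Endothelial markers at the floor numbered 1 of 6 without sunitinib and 2 with it, and red cell markers 1 and 2 of 2. Monocyte and macrophage markers numbered 2 of 8 and 3 of 8, and are taken up with CD14. The arrays correlated with r = 0.993 across gene probe sets, with medians of 6.73 and 6.76. GC-rich background probes, those with 15 to 25 G or C bases, were brighter with sunitinib by a median of 0.23 (11 of 11). Polyadenylated spikes were dimmer by a median difference of -0.34 (24 of 24 probe sets). The part of these shifts in the marker counts was not tested. A check of RNA quality, read as the 3′ minus the 5′ probe set of GAPDH, was 0.02 without and 0.04 with sunitinib, and for ACTB 0.91 and 0.85.

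Differences were small for most genes. The median difference, sunitinib minus untreated, was -0.04 on the log2 scale, its SD across genes was 0.31, and the 5th and 95th percentiles were -0.53 and 0.42. At a fixed size of 2-fold, 22 genes (0.207% of those kept) were higher with sunitinib and 64 (0.601%) were lower. At 1.5-fold these were 165 genes (1.55%) higher and 408 (3.83%) lower. With each array centred on its own median the 2-fold counts were 29 higher and 45 lower, so the share of lower genes among them moved from 74.4% to 60.8%. Differences followed signal. Over the dimmest 2663 genes the median was 0.05 and over the brightest 2663 it was -0.10, and the part of the background and spike differences in this was not tested. The only technical spread in the data is that between probe sets of 1 gene, whose SD had a median of 0.13 and a 90th percentile of 0.30 over 6181 genes. This spread is not the error between cultures. All probe sets gave the same sign in 8 of the 9 higher genes that had 2 or more above the floor, and in 31 of 32 lower genes.

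**Figure D1:**
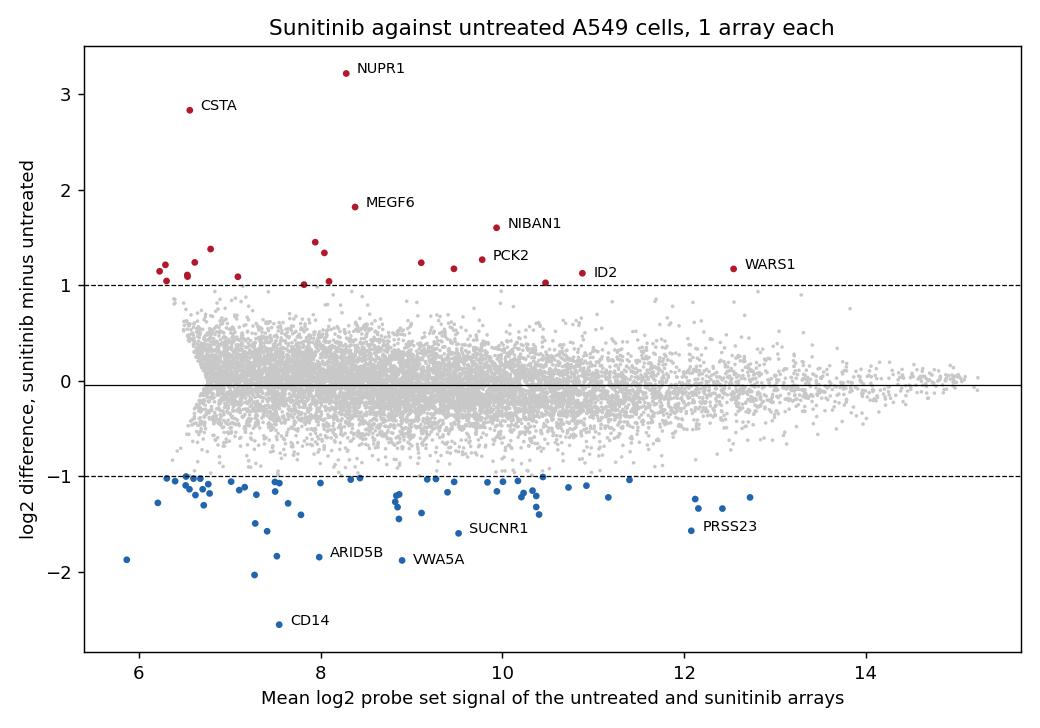
Each point is 1 of the 10651 genes, placed by its mean log2 signal on the untreated and sunitinib arrays and by the log2 difference, sunitinib minus untreated; dashed lines mark 2-fold, the solid line is the median of -0.04, and red and blue points are the 22 higher and 64 lower genes. NUPR1 and CSTA stand highest, CD14 lowest, and bright genes scatter less than dim ones.

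The difference with sunitinib added could also be read from the other 2 arrays, as the combination minus dihydroberberine. Those 2 arrays entered the choice of probe sets and the floor, but not the differences above. Of the 22 genes 2-fold higher with sunitinib alone, 20 were also higher there, 5 of them past 2-fold, with a median difference of 0.73 against 1.19 alone. Of the 64 lower genes, 54 were lower there as well, 13 past 2-fold, with a median of -0.59 against -1.18. That pair of arrays held many more genes past 2-fold upwards, 302 (2.84%), and fewer downwards, 44 (0.413%). So 5 of 22 is also 5 of 302, and 13 of 64 is 13 of 44. Over all 10651 genes the median difference of that pair was -0.0007, and the share of each sign was not counted. In the first pair 10 of the 22 higher and 23 of the 64 lower genes had 1 array under the floor. These were kept only through the array where they were high.

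Some genes of the amino acid response stood among the highest, while others of the same pathway hardly differed. NUPR1, a small chromatin-associated protein induced by stress, lay under the floor at 6.67 in untreated cells and read 9.89 with sunitinib, at least 8.79-fold higher. It read 8.35 with dihydroberberine and 9.81 in the combination, so the 2 arrays with sunitinib were the highest. NIBAN1, a stress-induced protein that acts on translation, read 9.14 untreated, 10.74 with sunitinib, 10.84 with dihydroberberine and 11.16 with both, and was 3.03-fold higher with sunitinib alone. Its 3 probe sets ranged from 0.48 to 1.67, and all 3 treated arrays stood above the untreated one. ATF5, a factor translated under the same control as ATF4, went from 7.88 to 8.81 and was 1.91-fold higher, although the mean of its probe sets gave a difference of only 0.53. CEBPG, a partner of ATF4 on DNA, went from 9.57 to 10.38 (1.75-fold), and EIF4EBP1, a repressor of cap-dependent translation, from 12.14 to 12.96 (1.77-fold). The mRNA of ATF4, a factor controlled mainly at translation, differed by 0.13, and DDIT3, the pro-apoptotic CHOP factor, differed by 0.02. TRIB3, a pseudokinase that damps ATF4, differed by 0.35 and CHAC1, a glutathione-degrading enzyme, by -0.03 with probe sets of both signs. Of 24 genes in the list of ATF4 pathway factors and feedback, 23 were kept, 13 with a positive difference and 10 with a negative one. The median was 0.11, against -0.04 for all genes. Past 1.5-fold were 5 of the 23 upwards and 0 downwards, beside 1.55% and 3.83% of all genes, and 1 of the 5, NUPR1, was kept only through its sunitinib array.

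Enzymes that make amino acids were divided. PCK2, the mitochondrial carboxykinase that makes phosphoenolpyruvate, read 9.14 untreated and 10.41 with sunitinib, 2.41-fold higher, and 10.45 and 10.19 on the dihydroberberine and combination arrays. Adding sunitinib to dihydroberberine thus left PCK2 lower, by a difference of -0.26. ASNS, asparagine synthetase, went from 12.84 to 13.74, 1.86-fold higher, and stood at 13.70 and 13.73 with the other treatments. PHGDH, the first enzyme of serine synthesis, went from 11.88 to 12.50 (1.54-fold). CPS1, the urea cycle enzyme that fixes ammonia, went the other way, from 13.18 to 12.58, with 11.40 in the combination. Of 26 listed genes of amino acid and one-carbon synthesis 19 were kept, 10 positive and 9 negative, with a median of 0.03. The 4 genes just named were all that passed 1.5-fold, 3 upwards and 1 downwards, beside 1.55% and 3.83% of all genes. Among 22 kept of 27 amino acid transporters 13 were positive and the median was 0.22. SLC38A1, a neutral amino acid carrier for glutamine, was higher at 12.26 against 11.48. SLC36A4, a transporter for proline and tryptophan, was lower at 7.85 against 8.57. They were the only members past 1.5-fold, 1 of 22 in each direction, beside 1.55% of all genes upwards and 3.83% downwards.

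Cytosolic tRNA synthetases, which charge tRNAs with amino acids, had the highest median of the 41 gene lists, 0.36 over 21 kept genes, with 16 positive and 5 negative. WARS1, the tryptophanyl enzyme, went from 11.96 to 13.13, 2.25-fold higher, with 12.94 under dihydroberberine and 13.08 in the combination, and its 3 probe sets ranged from 0.99 to 1.17. SARS1, the seryl enzyme, went from 11.69 to 12.51, EPRS1, which charges glutamate and proline, from 10.70 to 11.39, and MARS1, the methionyl enzyme, from 11.44 to 12.03. These 4 of 21 passed 1.5-fold upwards and 0 did so downwards, beside 1.55% and 3.83% of all genes. QARS1, the glutaminyl enzyme, had the lowest difference at -0.44, followed by FARSA, a subunit of the phenylalanyl enzyme, at -0.37 and VARS1, the valyl enzyme, at -0.31. The separate mitochondrial synthetases had a median of -0.11 over 16 kept of 17, with 6 positive, 10 negative and none past 1.5-fold, AARS2 the lowest at -0.41 and SARS2 the highest at 0.28. In the combination minus dihydroberberine the cytosolic list had a median of 0.01 and the mitochondrial list one of 0.02. Dihydroberberine alone already gave levels near those of sunitinib for several members, such as SARS1 at 12.62 and MARS1 at 11.99.

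**Figure D2:**
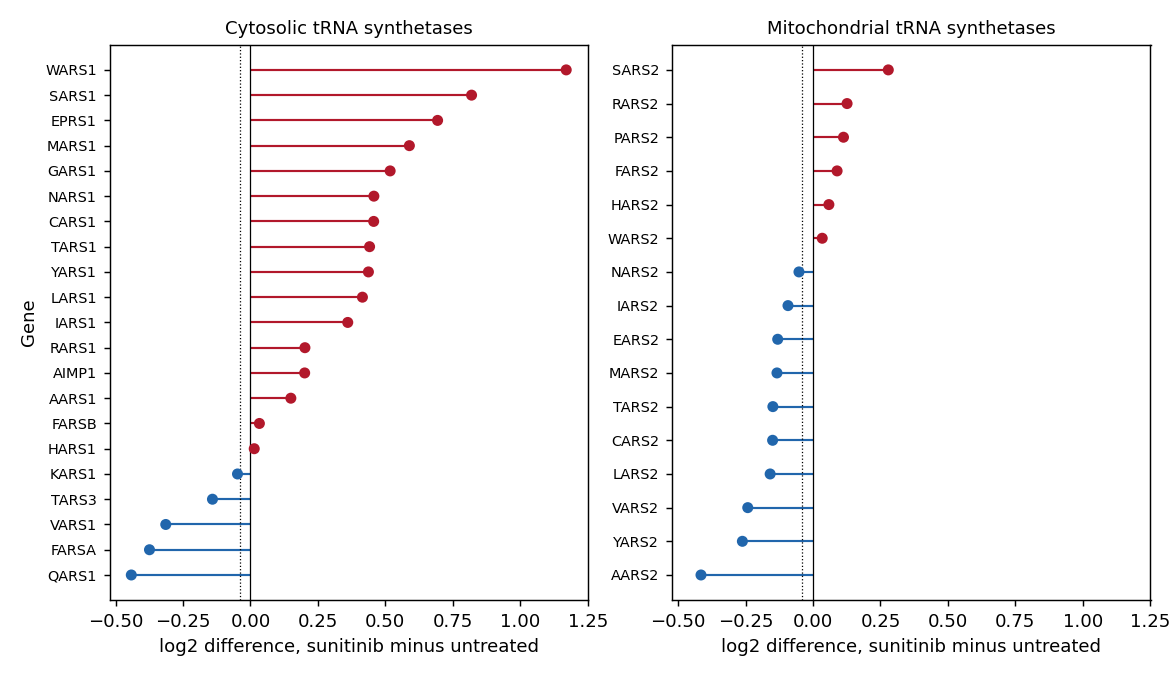
Points give the log2 difference, sunitinib minus untreated (1 array each), of 21 cytosolic and 16 mitochondrial tRNA synthetase genes, red where positive and blue where negative, with a dotted line at the median of all genes. WARS1 stands highest at 1.17, and 16 of 21 cytosolic genes but 6 of 16 mitochondrial genes are positive.

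ATF4 binds DNA with C/EBP partners at a composite element, searched as TGATGNAAN on both strands of the 250 bases before each start site in RefSeq (GRCh38.p14). It occurred in 1100 of 35116 windows (3.13%), and before 203 of the 8859 kept genes with a window (2.29%). Among members with a window, 5 of 20 ATF4 pathway genes held it (ATF3, CEBPG, PPP1R15B, CHAC1 and JDP2), as did 3 of 16 synthesis genes (ASNS, MTHFD1L and GOT1) and 3 of 17 cytosolic synthetases (AARS1, GARS1 and IARS1). Over these 203 genes the median difference was -0.02, close to the -0.04 of all genes. A match is only a description of these letters. The windows of 3 genes that carried the match and stood higher with sunitinib show how it sits near the start, at 59, 33 and 25 bases before it, with the match in capitals. ASNS lies at chr7:97872409-97872658 on the minus strand, CEBPG at chr19:33373863-33374112 on the plus strand and GARS1, which encodes the glycyl synthetase and differed by 0.52, at chr7:30594628-30594877 on the plus strand, where the match is on the other strand.
ASNS: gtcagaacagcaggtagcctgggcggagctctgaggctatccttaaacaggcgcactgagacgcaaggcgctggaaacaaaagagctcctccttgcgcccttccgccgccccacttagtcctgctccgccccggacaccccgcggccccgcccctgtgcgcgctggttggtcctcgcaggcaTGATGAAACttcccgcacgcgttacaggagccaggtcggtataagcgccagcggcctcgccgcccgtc
CEBPG: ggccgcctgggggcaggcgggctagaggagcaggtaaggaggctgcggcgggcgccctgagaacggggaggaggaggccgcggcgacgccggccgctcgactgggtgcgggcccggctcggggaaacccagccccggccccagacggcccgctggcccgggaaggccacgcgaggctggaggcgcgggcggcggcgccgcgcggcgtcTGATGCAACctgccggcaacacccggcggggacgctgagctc
GARS1: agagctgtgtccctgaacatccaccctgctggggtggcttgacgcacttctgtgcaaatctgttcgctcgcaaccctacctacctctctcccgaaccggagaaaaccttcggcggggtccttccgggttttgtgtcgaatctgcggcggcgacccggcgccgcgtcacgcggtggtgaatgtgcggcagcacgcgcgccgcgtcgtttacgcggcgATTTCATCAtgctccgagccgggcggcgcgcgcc

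Chaperones of the endoplasmic reticulum went the other way. Of 42 listed genes of folding, export and degradation in this compartment 39 were kept, 31 with a negative difference and 8 with a positive one, and the median was -0.18. Past 1.5-fold were 8 downwards and 0 upwards, beside 3.83% and 1.55% of all genes. CALR, the calcium-binding lectin chaperone calreticulin, read 9.69 untreated, 8.66 with sunitinib, 9.15 with dihydroberberine and 8.47 with both, and was 2.04-fold lower with sunitinib. SDF2L1, a cofactor of the chaperone BiP, went from 11.87 to 11.02 (1.81-fold lower), and MANF, a secreted stress protein of the same compartment, from 12.88 to 12.15. DNAJB11, a J-domain cochaperone, was lower at 10.71 against 11.42, as was PDIA4, a disulfide isomerase, at 12.80 against 13.46. DERL1 and EDEM2, which serve the removal of misfolded proteins, differed by -0.66 and -0.62, and by -0.30 and -0.37 with the mean of their probe sets. ERO1A, the oxidase that recharges disulfide isomerases, differed by -0.69, with probe sets of both signs. HSPA5, which encodes BiP itself, went from 14.13 to 13.79, a difference of -0.34, and its 6 probe sets ranged from -0.99 to -0.34. The highest members were DNAJB9, a cochaperone made under IRE1 and XBP1, at 0.37 and HSPA13 at 0.32. In the combination minus dihydroberberine the list's median was -0.11, with 24 negative and 15 positive.

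The endoplasmic reticulum stress element, to which ATF6 binds with NF-Y, reads CCAAT, then any 9 bases, then CCACG, and was searched in the same windows on both strands. It was found in 26 of 35116 windows (0.0740%) and before 15 of 8859 kept genes (0.169%), 13 with a negative difference and 2 with a positive one, with a median of -0.34. In the endoplasmic reticulum list 8 of 35 members with a window held it, HSPA5, HSP90B1, CALR, CANX, PDIA6, CRELD2, XBP1 and ERO1B. Their median of -0.24 stood beside -0.18 for the members without it, so members without these letters were lower too. The windows of 4 of the lower genes are printed because they place the element beside the measured differences, with the match in capitals. They are CALR (chr19:12938359-12938608, plus strand), CRELD2 (chr22:49918384-49918633, plus strand), HSPA5 (chr9:125241344-125241593, minus strand) and PDIA6 (chr2:10812786-10813035, minus strand). The match lies on the other strand in CALR and CRELD2. CRELD2, a secreted stress-induced protein, and PDIA6, a disulfide isomerase, differed by -0.46 and -0.35.
CALR: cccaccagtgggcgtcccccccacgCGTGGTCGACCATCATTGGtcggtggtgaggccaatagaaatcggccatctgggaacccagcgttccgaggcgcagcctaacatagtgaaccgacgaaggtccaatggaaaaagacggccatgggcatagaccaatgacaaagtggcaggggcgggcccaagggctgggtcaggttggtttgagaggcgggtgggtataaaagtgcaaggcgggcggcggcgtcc
CRELD2: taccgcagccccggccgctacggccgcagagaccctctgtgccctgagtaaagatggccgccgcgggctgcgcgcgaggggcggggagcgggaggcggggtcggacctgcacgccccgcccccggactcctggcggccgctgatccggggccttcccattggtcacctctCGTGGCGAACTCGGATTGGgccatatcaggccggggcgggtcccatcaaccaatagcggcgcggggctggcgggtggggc
HSPA5: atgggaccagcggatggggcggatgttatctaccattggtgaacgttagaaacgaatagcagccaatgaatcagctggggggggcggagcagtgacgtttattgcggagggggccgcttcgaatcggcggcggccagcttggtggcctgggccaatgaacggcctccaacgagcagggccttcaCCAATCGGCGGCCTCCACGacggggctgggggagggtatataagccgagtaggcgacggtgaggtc
PDIA6: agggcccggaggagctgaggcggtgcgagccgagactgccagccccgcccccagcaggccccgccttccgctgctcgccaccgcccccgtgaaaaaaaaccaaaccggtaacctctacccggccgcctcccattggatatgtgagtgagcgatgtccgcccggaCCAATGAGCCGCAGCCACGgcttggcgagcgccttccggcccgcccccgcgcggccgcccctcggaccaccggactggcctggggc

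**Figure D3:**
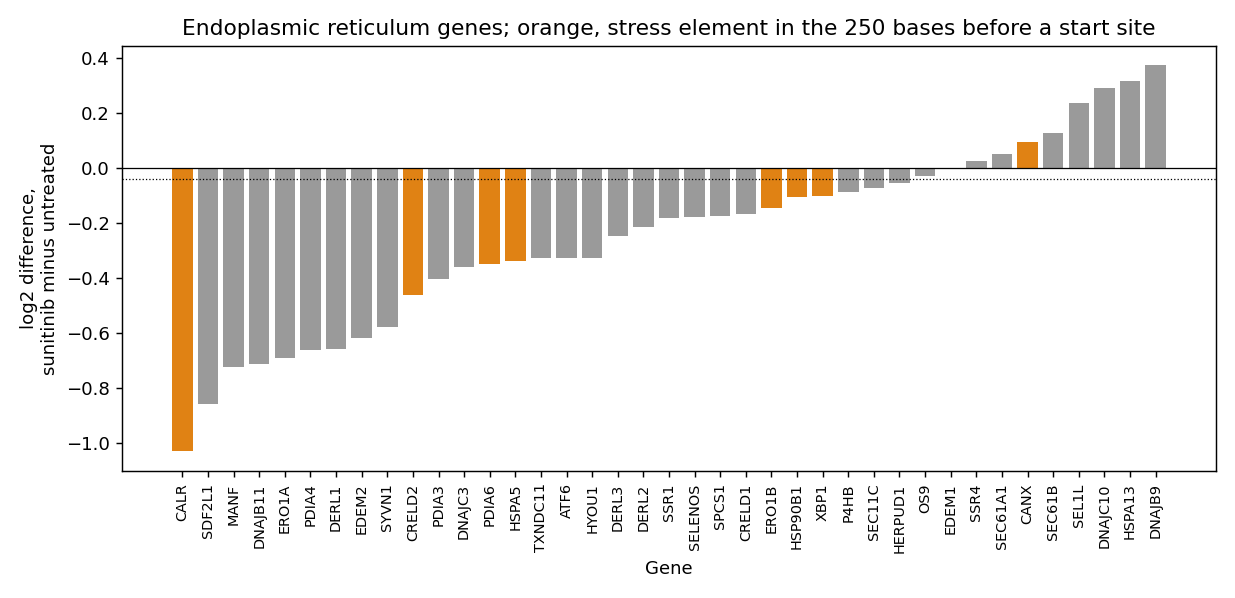
Bars give the log2 difference, sunitinib minus untreated (1 array each), of the 39 kept endoplasmic reticulum genes in order, orange for the 8 with a stress element in the 250 bases before a start site and grey for the others; the dotted line is the median of all genes. CALR is lowest at -1.03, and both colours are mostly under 0.

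Cytosolic heat shock genes had a median of -0.10 over 24 kept of 28. CRYAB, the small heat shock protein alpha B crystallin, was 2.08-fold lower, at 6.97 against 8.03, and stood at 6.83 in the combination against 7.78 with dihydroberberine. HSPB1, another small heat shock protein, was 1.72-fold lower at 10.67 against 11.45. DNAJA1, a cochaperone of HSP70, was the highest member at 12.23 against 11.66, though the mean of its probe sets gave a difference of 0.20.

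The kinases that sunitinib inhibits were mostly near or under the floor in this line. Of 9 listed targets 4 were kept. FLT4, the lymphatic VEGF receptor, read 8.13 untreated and 8.04 with sunitinib, with probe sets of both signs. PDGFRB, a PDGF receptor, read 7.44 and 6.90, again with probe sets of both signs. KDR, the main endothelial VEGF receptor, and CSF1R, the receptor of macrophage colony-stimulating factor, passed only with sunitinib, at 6.92 and 6.81 against 6.66 and 6.64. GC-rich background probes, with medians of 6.70 and 6.99, were brighter with sunitinib by a similar size. Their part in the KDR and CSF1R differences was not tested. FLT1, PDGFRA, KIT, FLT3 and RET lay under the floor on both arrays. A level under this floor may still be expression, and the values say nothing of kinase activity. The other receptor kinases had a median of -0.30 over 16 kept of 27, with 4 positive and 12 negative, and of -0.04 over all measured members with no filter on dim probe sets. EGFR, the epidermal growth factor receptor, differed by -0.56 with probe sets of both signs, FGFR1 by -0.42, and AXL by -0.67 with the sunitinib array under the floor at 6.53.

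Among 18 kept of 36 ligands of such receptors 4 were positive and 14 negative, with a median of -0.13. NRG1, which binds the receptors ERBB3 and ERBB4, read 9.80 untreated, 8.42 with sunitinib, 9.53 with dihydroberberine and 8.04 with both, and was 2.61-fold lower with sunitinib. The 2 arrays with sunitinib were the lowest 2 for NRG1. Its 4 probe sets ranged from -1.38 to -0.46, and the mean of its probe sets gave -0.58. GAS6, the ligand of AXL, differed by -0.57 and FGF2, basic fibroblast growth factor, by -0.52. Feedback and early genes of the ERK pathway had a median of -0.13 over 29 kept of 35. DUSP5, a nuclear phosphatase of ERK, read 9.66 untreated and 9.02 with sunitinib, and DUSP6, its cytoplasmic counterpart, 11.56 and 11.01. IER3, an early response gene, read 10.69 and 10.03. With dihydroberberine alone these 3 stood high, at 12.46, 13.03 and 12.23, and in the combination lower, at 10.78, 11.94 and 11.11. CCND1, cyclin D1, was the highest member, at 11.16 against 10.66, and at 11.38 in the combination against 10.04 with dihydroberberine.

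Genes that FOXO factors activate when AKT is silent differed in both directions. Of 20 kept of 22 listed genes 7 were positive and 13 negative, with 1 past 1.5-fold upwards and 6 downwards, beside 1.55% and 3.83% of all genes. The median was -0.18, or -0.05 with the mean of probe sets. CITED2, a coactivator partner that also restrains HIF, was 2.23-fold lower at 9.36 against 10.52, and PDK4, which shuts off pyruvate dehydrogenase, 1.92-fold lower at 8.81 against 9.75. SESN3, a sestrin that restrains growth signalling, differed by -0.77, BCL6, a repressor, by -0.76, IRS1, the insulin receptor substrate, by -0.69 and PPARGC1A, a coactivator of mitochondrial genes, by -0.61. TXNIP, a protein that restrains glucose uptake, was higher, at 12.14 against 11.49. With dihydroberberine TXNIP was low at 7.06, and adding sunitinib brought it to 8.30.

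Among the inflammatory genes 3 secreted factors and 2 receptors passed 1.5-fold, all in the lower direction. IL6, the cytokine interleukin 6, read 11.10 untreated, 9.70 with sunitinib, 11.51 with dihydroberberine and 9.48 with both. It was 2.64-fold lower with sunitinib alone, and both arrays with sunitinib lay below both arrays without it. CXCL8, a chemokine that attracts neutrophils, read 12.83, 11.49, 14.55 and 14.04 in the same order, 2.52-fold lower with sunitinib alone. For CXCL8 the combination stayed above the untreated array. LIF, a cytokine of the interleukin 6 family, went from 10.44 to 9.75, and OSMR, which receives oncostatin M, from 8.89 to 8.18. IL1R1, the interleukin 1 receptor, went from 10.23 to 9.64, a difference of -0.59, or -0.20 with the mean of its probe sets. The list of cytokines, chemokines and their receptors kept 22 of 33 genes, 5 positive and 17 negative, with a median of -0.25, and of -0.09 over all measured members with no filter. Of the 22, 5 passed 1.5-fold downwards and 0 upwards, beside 3.83% and 1.55% of all genes. Other secreted members had positive differences, the highest IL1A, interleukin 1 alpha, at 0.38, and the chemokine CXCL5 at 0.21.

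Components and feedback genes of NF-kB and STAT3, which drive such cytokines, had a median of -0.18 over 20 kept of 25, with 13 negative. CEBPD, a factor induced by interleukin 6, went from 11.29 to 10.47, BCL3, an atypical inhibitor of NF-kB, from 8.81 to 7.99, and TNFAIP3, the feedback enzyme A20, from 11.24 to 10.61. All 3 were also lower in the combination than with dihydroberberine, by differences of -0.27, -0.33 and -0.65. Interferon response genes had a median of -0.22 over 30 kept of 43, with 20 negative and 10 positive. The combination minus dihydroberberine gave -0.23 with 24 of the 30 negative. IFITM1, a membrane protein that blocks virus entry, went from 8.60 to 7.69 and in the combination stood at 7.55 against 8.25. IRF9, the DNA-binding part of the interferon factor ISGF3, went from 8.49 to 7.76, and OAS1, a sensor of double-stranded RNA, from 12.04 to 11.41. IFI27, an interferon-induced mitochondrial protein, was higher at 7.74 against 7.12, and RIGI, a viral RNA sensor, differed by 0.74 with the untreated array under the floor.

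Factors that stressed cells secrete had the lowest median of the 41 lists, -0.95 over 9 kept of 13, with 4 past 2-fold downwards and 0 upwards, beside 0.601% and 0.207% of all genes. The list overlaps others, since it holds IL6 and CXCL8. IGFBP3, the main carrier of insulin-like growth factors in serum, read 13.09 untreated, 11.75 with sunitinib, 12.30 with dihydroberberine and 11.50 with both, and was 2.53-fold lower with sunitinib. Each treatment gave a level below the untreated one. ANGPTL4, an inhibitor of lipoprotein lipase, read 9.43, 8.23, 10.13 and 8.97 in that order, 2.30-fold lower with sunitinib alone. STC1, a secreted glycoprotein, went from 8.01 to 7.06. Its relative STC2, an ATF4-responsive gene, went the other way, from 9.11 to 9.71. The list median was -0.43 over all measured members with no filter.

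BMP signals pass through SMAD proteins to the ID genes, which encode inhibitors of helix-loop-helix factors. ID2 read 10.32 untreated, 11.44 with sunitinib, 9.91 with dihydroberberine and 11.19 with both, 2.18-fold higher with sunitinib alone, and both arrays with sunitinib were above both without. ID1 went from 12.35 to 13.28 (1.91-fold) and from 13.01 to 13.87 where sunitinib was added to dihydroberberine. ID3 went from 11.55 to 12.13 and from 12.27 to 12.62. BMPR2, the type II BMP receptor, differed by 0.63, or by 0.23 with the mean of its probe sets, and by 1.26 in the other pair of arrays. BMPER, an extracellular protein that binds BMPs, was 2.72-fold lower, at 8.14 against 9.58, and at 8.24 against 9.07. SMAD3, a carrier of TGF-beta signals, was 1.98-fold lower at 9.83 against 10.82. Across all 28 kept of 45 genes of these pathways the median was -0.03, which turned positive, up to 0.04, when arrays were rescaled, so no direction is given for the list.

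**Figure D4:**
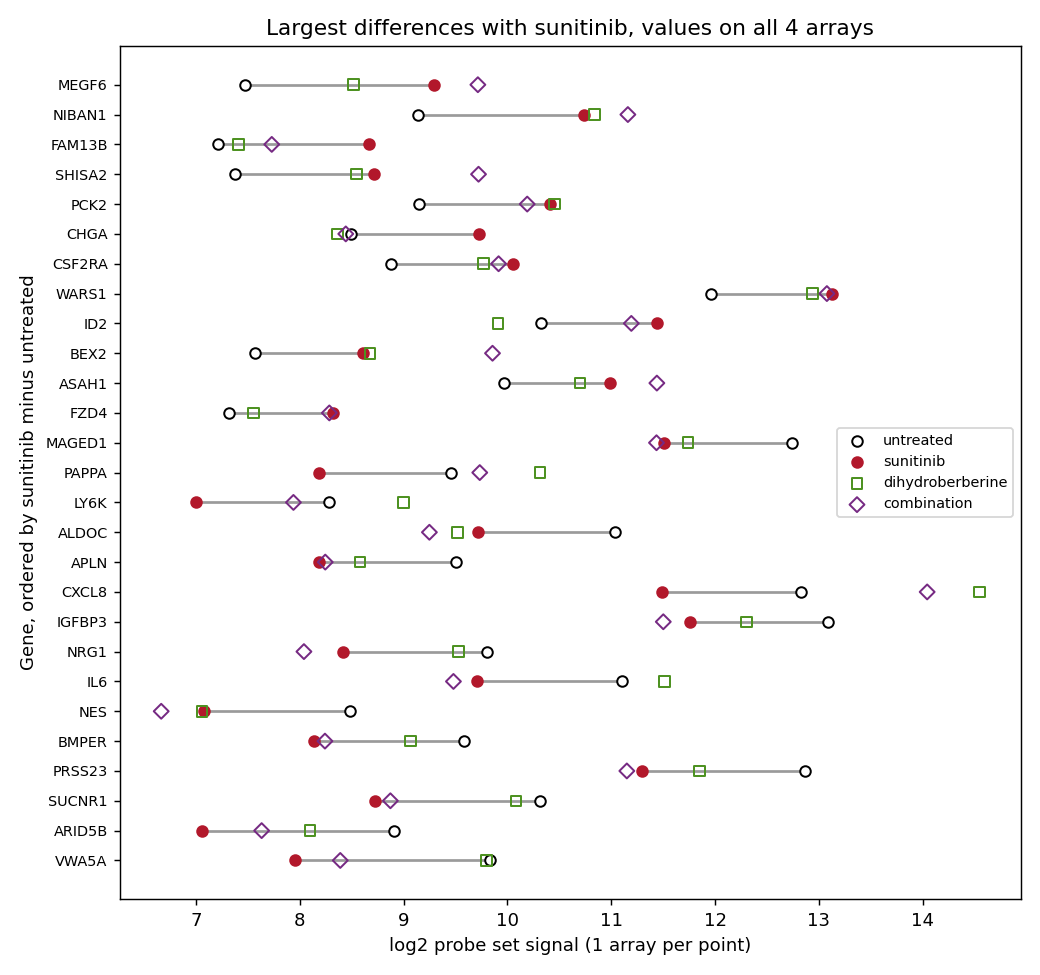
Log2 signal on the 4 arrays (1 array per point) of the 12 highest and 15 lowest genes past 2-fold with both arrays above the floor and probe sets of 1 sign, ordered by sunitinib minus untreated, with a grey line from the untreated to the sunitinib value. Both arrays with sunitinib stand below both arrays without it for most of the 15 lower genes, among them SUCNR1, VWA5A, NRG1 and IL6. The exceptions are ALDOC, NES, CXCL8 and PAPPA. NIBAN1, PCK2 and WARS1 are among the higher genes that are raised on all treated arrays.

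The other genes of largest difference belong to no list above. MEGF6, a secreted protein with EGF-like domains, read 7.47 untreated and 9.29 with sunitinib, 3.52-fold higher, and went from 8.52 to 9.72 where sunitinib was added to dihydroberberine. Its 2 probe sets gave differences of 0.77 and 1.82. SHISA2, a protein of the endoplasmic reticulum that restrains Wnt and FGF receptors, read 7.37 and 8.71 (2.53-fold, or a difference of 0.84 with the mean of its probe sets), and 8.54 and 9.72 in the other pair. BEX2, a small X-linked adaptor protein, read 7.57 and 8.61 (2.06-fold), and 8.68 and 9.86. For MEGF6, SHISA2 and BEX2 the combination was the highest of the 4 arrays. FAM13B was 2.73-fold higher at 8.67 against 7.22, but 7.73 in the combination against 7.41, and its mean over probe sets gave 0.92. CHGA, the secretory granule protein chromogranin A, was high on the sunitinib array only, at 9.73, with 8.49, 8.36 and 8.44 on the untreated, dihydroberberine and combination arrays. CSF2RA, a chain of the GM-CSF receptor, read 8.88 untreated and 10.05 with sunitinib (2.25-fold), and 9.77 and 9.91 with dihydroberberine and both. FZD4, a Wnt receptor, read 7.31 and 8.32 (2.01-fold), and 7.56 and 8.28.

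Among the lower genes VWA5A, a protein with a von Willebrand factor A domain, read 9.84 untreated and 7.96 with sunitinib, 3.68-fold lower, and 9.80 and 8.39 with dihydroberberine and both. Its 6 probe sets ranged from -1.88 to -0.36, with a mean of -1.10. SUCNR1, the receptor for succinate, read 10.32 and 8.72 (3.02-fold lower) and 10.08 and 8.87. For both genes the 2 arrays with sunitinib lay below the 2 without it. ARID5B, a DNA-binding cofactor, read 8.91 and 7.06 (3.59-fold lower), with 8.10 and 7.63 on the other arrays. NES, the intermediate filament nestin, was 2.64-fold lower at 7.08 against 8.49, and APLN, the peptide hormone apelin, 2.50-fold lower at 8.19 against 9.51. MAGED1, an adaptor of apoptosis signalling, was 2.36-fold lower at 11.50 against 12.74. With dihydroberberine alone NES, APLN and MAGED1 were also low, at 7.06, 8.58 and 11.74, and they read 6.67, 8.25 and 11.44 in the combination. PAPPA, a protease that releases insulin-like growth factors from a binding protein, was 2.41-fold lower at 8.19 against 9.45, and LY6K, a GPI-anchored protein, 2.43-fold lower at 7.0 against 8.28. For PAPPA and LY6K dihydroberberine alone stood above untreated, at 10.32 and 9.0, and the combination read 9.73 and 7.94.

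Glycolysis had a median of -0.32 over 28 kept of 31 genes, 25 of them negative, where 5956 of all 10651 genes were. Past 1.5-fold were 5 downwards and 0 upwards, beside 3.83% and 1.55% of all genes. ALDOC, an aldolase isoform, read 11.03 untreated, 9.71 with sunitinib, 9.52 with dihydroberberine and 9.25 with both, 2.50-fold lower with sunitinib alone, and its 5 probe sets ranged from -1.58 to -0.62. GPI, the second enzyme of the pathway, went from 12.81 to 12.19, PFKFB4, which makes the activator of phosphofructokinase, from 8.08 to 7.34, and GBE1, the glycogen branching enzyme, from 10.65 to 10.00. PDK3, a kinase that shuts off pyruvate dehydrogenase, went from 8.31 to 7.54. GAPDH differed by -0.01, LDHA, lactate dehydrogenase A, by -0.18, and the glucose transporter SLC2A1 by 0.35. In the combination minus dihydroberberine the list median was -0.07, and dihydroberberine alone had already brought ALDOC, GPI, PFKFB4 and GBE1 to 9.52, 12.33, 6.99 and 9.56.

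The response to low oxygen is carried by HIF factors, which prolyl hydroxylases mark for destruction. Of 26 kept of 30 listed genes 24 were negative, the median was -0.24, and 8 passed 1.5-fold downwards against 0 upwards, beside 3.83% and 1.55% of all genes. P4HA2, a collagen prolyl hydroxylase, was 2.33-fold lower at 9.60 against 10.82. ADM, the vasodilator peptide adrenomedullin, read 10.41 and 9.45, and 11.36 with dihydroberberine against 9.69 with both. LOXL2, a collagen cross-linking oxidase, went from 9.60 to 8.81 and PLOD1, a collagen lysyl hydroxylase, from 10.81 to 10.10. EGLN3, one of the prolyl hydroxylases, went from 7.53 to 6.86. BNIP3, a mitophagy receptor, differed by -0.62, but by -0.11 with the mean of its probe sets. VEGFA, the ligand of the receptors that sunitinib blocks, differed by -0.14 and HIF1A by -0.11. The combination minus dihydroberberine gave a list median of 0.03 with 14 positive and 12 negative.

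Genes of the respiratory chain had small, mostly negative differences. Complex I, which passes electrons from NADH, had a median of -0.14 over 36 kept of 38, 33 negative, and complexes II to V one of -0.09 over 37 kept of 40, 31 negative. None of these genes passed 1.5-fold. NDUFB4 was the lowest of complex I at 12.30 against 12.84, and SDHA, the flavoprotein of complex II, the lowest of the others at 11.59 against 12.03, a difference of -0.44, or -0.19 with the mean of its probe sets. Cytosolic ribosomal proteins, by contrast, lay within -0.19 and 0.37, with a median of 0.03 over 63 kept of 76. RPL13 stood highest at 13.60 against 13.22 and RPS9 lowest at 14.12 against 14.31. These are among the brightest genes of the array. Polyadenylated spikes, at a median of 8.37 untreated, and 18S rRNA probe sets, at 14.17, were dimmer by medians of -0.34 and -0.21. Hybridisation spikes, at a median of 10.88 untreated, had a median difference of -0.10 (17 of 18 probe sets negative). The part of these controls in the small shifts of bright lists was not tested.

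Genes of cholesterol synthesis, uptake and control, many but not all of which SREBP2 activates when sterols are short, had a median of -0.28. This was over 24 kept of 34, 20 negative. DHCR7, the last reductase of the pathway, went from 10.06 to 9.47, and INSIG1, which retains SREBP in the endoplasmic reticulum, from 10.65 to 10.06. Both were lower still with dihydroberberine, at 9.39 and 8.52. Adding sunitinib to dihydroberberine gave a list median of 0.01. Fatty acid synthesis had a median of -0.13 over 25 kept of 29, 20 negative, led by FADS2, a desaturase, at 9.48 against 10.32, and ELOVL4, an elongase of very long chains, at 8.62 against 9.21. Targets of PPAR factors and genes of fatty acid oxidation had a median of -0.15 over 22 kept of 34. ANGPTL4 and PDK4, described above, led them, and the lipid droplet coat proteins PLIN2 and PLIN3 differed by -0.85 and -0.56, PLIN2 with its sunitinib array under the floor. PPARG itself read 7.94 untreated and 7.45 with sunitinib.

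Lysosomal genes differed in both directions. ASAH1, acid ceramidase, read 9.96 untreated, 10.99 with sunitinib, 10.70 with dihydroberberine and 11.44 with both, and was 2.03-fold higher with sunitinib alone. Its 5 probe sets ranged from 0.97 to 1.30, and the combination was the highest array. CTSD, the aspartic protease cathepsin D, went from 10.76 to 11.30 (1.45-fold), and CTSZ, a cysteine cathepsin, went the other way, from 12.54 to 11.71 (1.77-fold lower). CTSO, another cysteine cathepsin, lay just under the floor at 6.71 and read 7.54 with sunitinib, at least 1.72-fold higher. Among 34 kept of 41 hydrolases 16 were positive and 18 negative, with a median of -0.02 that became 0.05 with centred arrays. TFEB, the factor that activates lysosomal genes, read 7.48 and 8.12 (1.56-fold higher). The 33 kept of 36 genes of the proton pump and membrane had a median of -0.08 that turned to 0.01 with quantile normalization. The pump subunits ATP6V0C and ATP6V0D1 differed by -0.49 and -0.42, the latter by -0.17 with the mean of its probe sets. Where sunitinib was added to dihydroberberine, 26 of the 33 were positive with a median of 0.17. The 35 genes of autophagy were all kept, 17 positive and 18 negative, with a median of -0.00, or 0.07 with centred arrays, and none past 1.5-fold. GABARAPL1, a homologue of LC3, differed by -0.53 and WIPI1, a phosphoinositide-binding protein of the early autophagosome, by -0.52.

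Genes of cell division had negative medians. DNA replication gave -0.22 over 49 kept of 51, with 38 negative, and G2 and mitosis -0.23 over 57 kept of 58, with 45 negative. CDT1, which loads the replicative helicase, was lower at 9.12 against 9.86. It was the only 1 of the 49 replication genes past 1.5-fold, beside 3.83% of all genes lower. KIF20A, a mitotic kinesin, went from 10.97 to 10.25, SPC25, a kinetochore protein, from 10.46 to 9.75, AURKB, a mitotic kinase, from 10.63 to 10.00, and PLK1, another, from 9.46 to 8.85. CDCA3, which helps degrade the mitosis-entry inhibitor WEE1, differed by -0.60, and these were the 5 mitotic genes past 1.5-fold downwards, beside 3.83% of all genes. With dihydroberberine alone KIF20A, SPC25, AURKB and PLK1 read lower still, at 9.75, 8.79, 9.95 and 8.62, and CDT1 read 9.17. With sunitinib added to dihydroberberine the medians of these lists were -0.02 and -0.07. Replication-dependent histones kept 10 of 26 genes, with a median of -0.28. H2BC9 was lowest at -0.68, the only 1 of the 10 past 1.5-fold, beside 3.83% of all genes lower. Its sunitinib array lay under the floor, and its difference was -0.53 when raised to it. H1-2 followed at -0.49, and H2AC6 was highest at 0.50.

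Cyclins of G1, their inhibitors and p53 targets had a median of 0.11 over 38 kept of 46, which was -0.04 at the stricter floor. ZMAT3, a p53-induced RNA-binding protein, went from 7.28 to 7.89, and FAS, a death receptor and p53 target, differed by 0.69 with the untreated array under the floor. PLK2, a stress kinase induced by p53, and BTG1, an antiproliferative protein, were lower, at 11.33 against 11.99 and 10.71 against 11.30. A549 cells carry normal p53, so its targets can respond in this line. Apoptosis regulators had a median of -0.08 over 27 kept of 36, which turned to 0.04 with quantile normalization. BIRC2, an inhibitor of apoptosis, differed by 0.53, PMAIP1, the BH3 protein NOXA, by 0.46, CASP9 by -0.53 and CASP8 by -0.53, the last by -0.21 with the mean of its probe sets.

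Genes of the cell surface and matrix were lower in a few members rather than as lists. PRSS23, a secreted serine protease, read 12.86 untreated, 11.30 with sunitinib, 11.85 with dihydroberberine and 11.15 with both, 2.97-fold lower with sunitinib alone. PLAU, the urokinase that activates plasminogen, was 2.01-fold lower at 9.94 against 10.95, and its receptor PLAUR 1.62-fold lower at 8.93 against 9.63. Dihydroberberine gave higher levels of both, at 11.85 and 10.75, and the combination stood between the single drugs, at 11.42 and 9.88. LXN, an inhibitor of carboxypeptidases, went from 10.53 to 9.48 and from 10.23 to 9.13. The 16 kept of 29 genes of metalloproteases and plasminogen activation had a median of -0.05, turning to 0.02 on rescaling, with 4 past 1.5-fold downwards, beside 3.83% of all genes. LAMB1, a laminin chain, was 2.33-fold lower at 10.56 against 11.78, and the matricellular proteins CCN1 and CCN2 differed by -0.94 and -0.66. ITGA2, the collagen-binding integrin, lay under the floor at 6.10 and was at least 1.65-fold higher at 7.48. Collagens, laminins and integrins had a median of -0.04 over 29 kept of 43, turning to 0.03 with centred arrays. Genes of epithelial and mesenchymal identity had one of -0.07 over 15 kept of 30, with 0.00 on rescaling and none past 1.5-fold. ZEB2 differed by -0.46 and SNAI2 by 0.35, both mesenchymal transcription factors.

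NRF2, the antioxidant factor, is active in A549 cells because they carry a mutant KEAP1. Its targets had a median of -0.06 over 30 kept of 34, turning to 0.01 on rescaling, and none passed 1.5-fold, TKT, a pentose phosphate enzyme, being lowest at 13.43 against 13.93 and ABCC3, an efflux pump, highest at 10.64 against 10.24. AHR, the aryl hydrocarbon receptor, was 1.92-fold lower at 9.97 against 10.91, while its target CYP1B1, a cytochrome P450, was 1.61-fold higher at 13.01 against 12.32. The 11 kept of 15 genes of that receptor had a median of -0.02, which was 0.05 with centred arrays. Drug efflux transporters had a median of 0.31 over 9 kept of 13, which reversed to -0.05 with the mean of probe sets. ABCG2, the pump also known as BCRP, was 1.60-fold lower at 9.95 against 10.63 (a difference of -0.24 with the mean of its probe sets), and ABCB1, P-glycoprotein, differed by 0.42. Metallothioneins and zinc transporters had a median of 0.03 over 16 kept of 19, or -0.10 at the stricter floor. SLC30A1, a zinc exporter, was 1.5-fold higher with probe sets of both signs. Kruppel-like and clock factors had a median of 0.06 over 22 kept of 29. KLF9 alone of the 22 passed 1.5-fold, beside 3.83% of all genes lower. It read 8.64 against 9.5, a difference of -0.86, or -0.40 with the mean of its probe sets.

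Genes with 1 array under the floor can only be bounded. CD14, the lipopolysaccharide co-receptor known from monocytes, read 8.82 untreated and 6.27 with sunitinib, at least 4.19-fold lower, and 6.75 and 5.76 with dihydroberberine and both. Its 2 probe sets gave differences of -2.55 and -2.31. Of the 8 monocyte and macrophage markers CD68 also stood lower, at 7.33 against 8.16. The summed level of the list, in which CD14 and CD68 were brightest untreated, went from 9.96 to 9.10 on the log2 scale. AIF1 and CSF1R went the other way, from 6.23 and 6.64, under the floor, to 6.75 and 6.81, AIF1 only touching the floor. CD163, LYZ, ITGAM and FCGR3A lay under the floor on both arrays. In RNA from a whole culture, fewer cells that express a gene and less of its RNA per cell cannot be told apart, and their part in the CD14 difference was not tested. SPAG4, a protein of the nuclear envelope, read 8.44 and 6.60, at least 3.21-fold lower, TMT1A, a thiol methyltransferase, 8.29 and 6.26, at least 2.90-fold lower, and TMEM45A, a transmembrane protein, 8.20 and 6.62, at least 2.72-fold lower. PDGFRL, a secreted protein related to the PDGF receptor, was at least 2.42-fold lower, at 6.53 against 8.03. In the higher direction CSTA, a cysteine protease inhibitor, read 5.15 and 7.98, at least 2.33-fold higher, and 7.85 and 8.77 with dihydroberberine and both. ELAC1, a tRNA endonuclease, was at least 1.82-fold higher, as were N4BP2L2 (1.85-fold) and NEO1, the netrin receptor neogenin (1.84-fold, with probe sets of both signs). Raised to the floor, 14 of the 22 higher and 47 of the 64 lower genes still passed 2-fold.

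**Figure D5:**
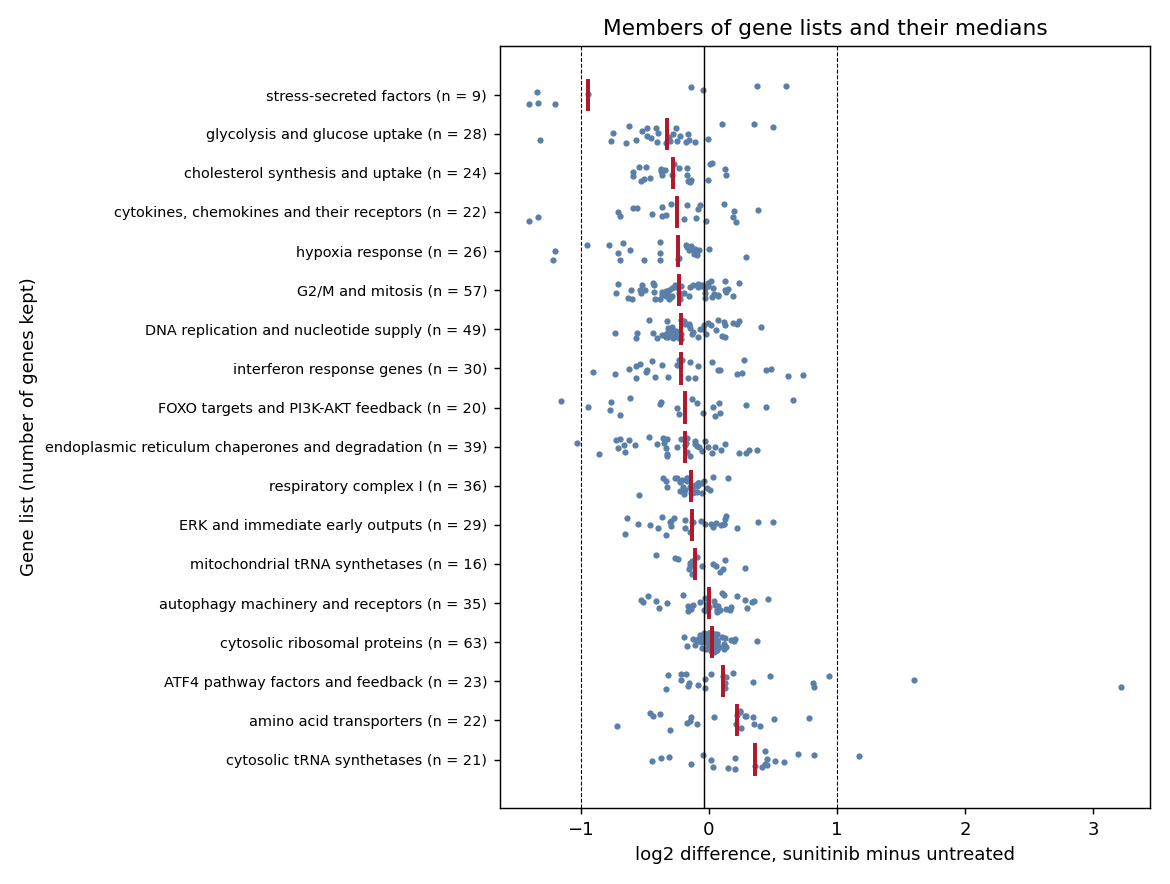
Each point is 1 kept gene of 18 of the gene lists, placed by its log2 difference, sunitinib minus untreated (1 array each); red bars are list medians, the solid line is the median of all genes and dashed lines mark 2-fold. Medians run from -0.95 for stress-secreted factors to 0.36 for cytosolic tRNA synthetases, and members of nearly every list lie on both sides of 0.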

How the data were processed

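RNA of 4 A549 cultures was hybridised to 1 array each. The values are log2 probe set summaries deposited by the authors, made with Affymetrix Expression Console as the submitters' processing notes name it. For its version, how probes were summarized and how arrays were scaled, the answer is not given in the sources used here. The values, between 3.01 and 15.4, fit a log2 scale. The design text names an Agilent array and the label field Cy3, but the labelling kit and the probe set names are Affymetrix.

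Of 49293 gene probe sets, 44988 had 1 gene symbol in the platform annotation, 1832 had several and were not used, and 2473 were unnamed here. By identifier 44961 matched a RefSeq gene table (GRCh38.p14), from which promoter windows were also taken. Differences of log2 values were computed in Python 3.11.15 with pandas 2.3.3 and tested on simulated data. A value under the floor was raised to it for a fold, then written as "at least". This floor does not mark where detection begins.

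With 1 array per group no test was run. Genes were counted at fixed sizes of 2-fold and 1.5-fold. The members and the 41 lists (1284 genes, of which 1016 were kept, 177 lay under the floor on both arrays and 91 were not analysed here) were chosen with earlier results of these data known. Named were up to 15 genes per direction past 2-fold with both arrays above the floor and probe sets of 1 sign, 5 per direction with 1 array under the floor, members of each list past 1.5-fold or otherwise its up to 4 largest, all target kinases and the cell type markers, of which the text prints a selection. Other list members and genes with a promoter match are named as examples, chosen after their values were seen. The alternatives were other rules for the probe set, the floor and the scaling, and the other pair of arrays.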

Additional observations from a re-analysis of the deposited data

Results flagged for a closer look

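Among the genes named by rule, 4 had differences of opposite sign in the 2 pairs of arrays that share no array, each past 1.5-fold. SIK2, chosen after its values were seen and given among the other observations, did so as well. EGLN3, a prolyl hydroxylase that marks HIF for destruction, differed by -0.67 with sunitinib alone and by 0.84 with sunitinib added to dihydroberberine. It lay above the floor on the untreated and sunitinib arrays only, at 7.53 and 6.86, against 5.70 with dihydroberberine and 6.55 with both. Raised to the floor of 6.75, the second pair shows no difference for EGLN3. PDK3, a kinase that shuts off pyruvate dehydrogenase, differed by -0.77 and 1.23, from 8.31 untreated to 7.54 with sunitinib and from 6.31 with dihydroberberine to 7.54 with both. IRS1, the insulin receptor substrate, differed by -0.69 and 0.66, and read the same to 1 decimal untreated (10.08) and with both drugs (10.07). SPC25, a kinetochore protein, differed by -0.71 and 0.64. In each of these 4 genes the dihydroberberine array was below the untreated one. With 1 array per condition the difference between the pairs was not tested.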

How the results depend on the processing

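The counts of 22 higher and 64 lower genes depended on the rule for dim genes and for probe sets. With probe sets averaged per gene they were 11 and 38, at a floor of the 75th percentile 10 and 36, with both arrays required above the floor 12 and 41, and with low values raised to the floor 14 and 47. No filter gave 26 and 67, the probe set chosen on the 2 compared arrays 21 and 63, quantile normalization 23 and 53, and centring 29 and 45. The combination minus dihydroberberine gave 302 and 44. Of the 43 genes past 2-fold that the naming rule gives, 43 kept their sign on the sunitinib and untreated arrays. This held in those of these 8 settings that retained the gene. In the settings that retained them, 34 genes also stayed past 2-fold. Rules for dim genes left out some of the 34, such as NUPR1, CD14 and NES, so not all were compared in all 8. Of the 41 list medians 27 kept their sign, and that of the drug efflux transporters reversed to -0.052 with averaged probe sets. The cause was not tested. No paired analysis was possible because the conditions share a single replicate number, and an additive fit over the 4 arrays was not run. The number of arrays limits the precision, and GC-rich background probes, with medians of 6.70 and 6.99, lay about the floor.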

Other observations

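Some genes past 2-fold belong to no list and were chosen here after their values were seen. Several encode surface proteins that receive or present signals. PTGER4, a receptor for prostaglandin E2, read 9.46 untreated and 8.27 with sunitinib (2.28-fold lower), and 9.80 and 9.20 with dihydroberberine and both. GPRC5A, an orphan receptor induced by retinoic acid, read 11.29 and 10.17 (2.17-fold lower), and 12.22 and 11.38. EFNA1, a ligand of Eph receptors, read 9.78 and 8.76 (2.04-fold lower), and 9.68 and 8.93. In all 3 the sunitinib array was the lowest of the 4, and the combination was below dihydroberberine alone. CD274, the immune checkpoint ligand PD-L1, lay just above the floor untreated at 6.82 and under it with sunitinib at 5.80, so its fold is bounded only at 1.05. It read 7.71 with dihydroberberine and 6.38 with both.

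TFPI2, a secreted protease inhibitor, was 2.05-fold lower at 10.88 against 11.92, with 3 probe sets between -1.25 and -1.03. TM4SF1, a membrane protein of the tetraspanin type, was 2.33-fold lower in the probe set taken, but its probe sets ranged from -1.22 to 0.65. SLC12A2, the sodium, potassium and chloride cotransporter, was 2.07-fold lower at 9.65 against 10.70, and was about as low with dihydroberberine and both, at 9.54 and 9.64. The salt-inducible kinase SIK2 was 2.31-fold lower with sunitinib alone, at 9.77 against 10.98, yet higher in the combination than with dihydroberberine, at 9.11 against 8.19.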
